A study of Mus musculus with 27 samples.

Results

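The comparison described here asks how the difference between a Sam68 knockout (KO) line and wild-type cells changed between day 3 and day 10 of embryoid body culture. It is the interaction of line and day, (Sam68 KO day 10 minus Sam68 KO day 3) minus (wild type day 10 minus wild type day 3), on the log2 scale. It uses 12 of the 27 RNA-seq libraries of the study, 3 in each of 4 groups, and was restricted to protein-coding genes, of which 15865 passed the filter on low counts among 51826 gene identifiers. The groups were E14 mouse embryonic stem cells with no knockout and a line of the same background labelled as a Sam68 knockout, each grown as embryoid bodies and sampled at day 3 and at day 10. The third line of the study, a Quaking KO line, was used only as another reference. Each genotype was represented by 1 line, so the knockout and a difference between clones cannot be told apart. The labels describe biological triplicates but name no separate cultures, so the p-values measure the spread between these libraries only. Library numbers of the Sam68-labelled samples form a run of their own, apart from those of the wild type, so the knockout cannot be told apart from a batch of libraries either.

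Sam68, encoded by Khdrbs1, belongs to the STAR family of RNA-binding proteins, which bind short A- and U-rich elements in transcripts and are known for regulating alternative splicing and RNA processing. Embryoid bodies are aggregates of stem cells that leave pluripotency, pass through a stage resembling the primitive streak, and then form mesoderm, endoderm and ectoderm derivatives, often with beating cardiac cells. Genes of these stages are therefore switched on and off between the days compared. In bulk RNA, fewer cells of a type and less RNA per cell cannot be told apart.

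The label was first checked against the transcript of the targeted gene. Khdrbs1 (ENSMUSG00000028790, GRCm38 chr4:129703164-129742303, minus strand) was read at 186, 202 and 196 CPM (counts of a gene scaled to library size) in the wild-type libraries of day 3, given here and below in replicate order, and at 177, 117 and 119 CPM at day 10. The Sam68-labelled libraries gave 117, 121 and 135 CPM at day 3 and 110, 113 and 114 CPM at day 10. The transcript was lower in the Sam68-labelled line at day 3 (log2 difference -0.64 ± 0.12 SE, adjusted p = 0.000564) but present in every library. At day 10 the Sam68-labelled values lay just below those of wild-type replicates 2 and 3, and the difference was not called (-0.29 ± 0.12, adjusted p = 0.0543). These libraries are therefore called Sam68-labelled throughout. The counts do not show which part of the transcript the reads cover. The interaction at Khdrbs1 did not pass the threshold (0.35 ± 0.17, adjusted p = 0.102). Without the library of wild-type day 10 replicate 1, which read 177 CPM, it was 0.58 ± 0.07 with an adjusted p of 6.57e-06.

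Among the other STAR genes, Khdrbs2 and Khdrbs3, which encode the SLM proteins, the closest relatives of Sam68, both had a lower interaction. Khdrbs2 stood at 0.359, 0.249 and 0.377 CPM in wild type and 0.569, 0.574 and 0.5 CPM in the Sam68-labelled libraries at day 3. At day 10 the order was reversed, with 0.66, 1.21 and 1.29 CPM in wild type and 0.292, 0.291 and 0.452 CPM in the Sam68-labelled line, and the groups overlapped at neither day. Its interaction was -2.35 ± 0.42 (adjusted p = 0.000415). Khdrbs3 was lower in the Sam68-labelled line at both days and more so at day 10, with an interaction of -0.35 ± 0.10, although this call was lost when counts were scaled over all genes of the table (-0.17, adjusted p = 0.195). Qk (0.18 ± 0.08, adjusted p = 0.0692) and Sf1 (-0.23 ± 0.11, adjusted p = 0.0922), 2 further family members, did not pass. Without wild-type day 10 replicate 1, Qk passed at 0.23 with an adjusted p of 0.0059.

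The libraries held 59.42 to 63.38 M (mega) counts in the Sam68-labelled day 3 group, 73.51 to 77.26 M at day 10, 66.51 to 69.18 M in wild type at day 3 and 66.4 to 71.35 M at day 10. The median over tested genes was 1171 counts in a library, and the common biological coefficient of variation was 7.59%. Long noncoding RNA took 3.14 to 3.70% of counts in the Sam68-labelled libraries of day 3 and 1.60 to 1.68% in wild type, against 1.37 to 1.49% and 1.11 to 1.63% at day 10. A list of nuclear noncoding RNAs such as Malat1 and Neat1 showed the same order, with 0.488 to 0.538% against 0.194 to 0.241% at day 3 and 0.353 to 0.403% against 0.220 to 0.348% at day 10. Small structured RNAs ran the other way, at 0.572 to 0.700% in the Sam68-labelled libraries and 1.87 to 2.21% in wild type at day 3, and 1.62 to 1.89% against 2.25 to 3.11% at day 10. Genes spanning the longest quartile of genomic distance (58829 bases or more) had a median interaction of -0.16 and 37.0% called lower, against 0.06 and 21.2% in the shortest quartile, and the part of the nuclear RNA share in single results was not tested. Wild-type day 10 replicate 1 stood apart from its group: the chi-square per gene was 76.0 and 69.8 against the other two libraries of the group, and 12.96 between those. Gene list counts are given without it where they moved by more than 1.5 times.

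The difference between the lines was not the same at the 2 days for a large part of the genes. At an adjusted p under 0.05 the interaction was called in 8565 of 15865 genes (54.0%), 4256 higher (26.8%) and 4309 lower (27.2%). Higher means that the Sam68-labelled line rose more, or fell less, from day 3 to day 10 than wild type did. At least 2-fold changes numbered 755 higher (4.76%) and 1812 lower (11.4%), so large changes were more often falls. The line difference itself was called in 9116 genes at day 3 (57.5%, with 28.4% higher and 29.1% lower in the Sam68-labelled line) and in 9114 at day 10 (57.4%, with 26.2% higher and 31.2% lower). The median interaction over all tested genes was -0.02. Scaling over all genes of the table, noncoding ones included, moved that median to 0.16, and upper-quartile scaling moved it to -0.10 and changed the split of calls to 3339 higher and 5057 lower, a higher share of 39.8% in place of 49.7%. Values below are therefore relative to the protein-coding total. Counts of called list members below are to be read against the shares over all genes. These were 26.8% higher and 27.2% lower for the interaction. For the line difference they were 28.4% and 29.1% at day 3 and 26.2% and 31.2% at day 10.

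The calls fell into a few patterns by day. Of the 4256 genes with a higher interaction, 1368 (32.1%) were lower in the Sam68-labelled line at day 3 and not called at day 10, 1156 (27.2%) were called higher at day 10 only, and 1000 (23.5%) were lower at day 3 and higher at day 10. Of the 4309 with a lower interaction, 1469 (34.1%) were higher at day 3 and not called at day 10, 1299 (30.1%) were called lower at day 10 only, and 1067 (24.8%) went from higher to lower. Klhl23, which encodes a kelch-domain protein, is an example of a reversal upwards. It read 57.9, 64.3 and 61.5 CPM in wild type and 34.7, 35.8 and 38.2 CPM in the Sam68-labelled line at day 3, and 60.7, 63.1 and 62.8 CPM against 137, 139 and 135 CPM at day 10. Wild type read much the same at both days, while the Sam68-labelled libraries lay below it first and above it later (interaction 1.90 ± 0.07). Pbx3, a homeodomain partner of Hox proteins, reversed downwards, from 50.3 CPM in wild type and 76.4 CPM in the Sam68-labelled line at day 3 to 69.7 and 30.5 CPM at day 10 (means of 3 libraries, interaction -1.79 ± 0.07).

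**Figure D1:**
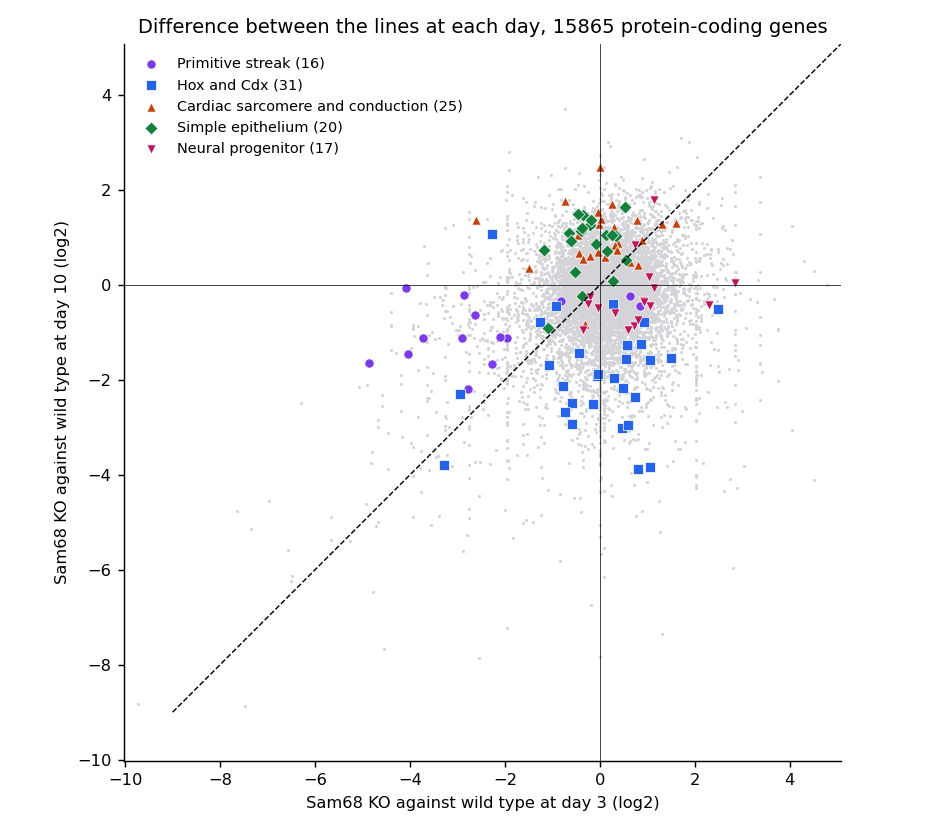
Log2 difference between the Sam68-labelled and wild-type libraries at day 3 (x axis) and at day 10 (y axis), 1 grey point per protein-coding gene, with 5 gene lists in colour and the dashed line where both days are equal; list members with 3 or fewer counts in a group are left out. Primitive streak genes lie far to the left and above the dashed line, most Hox genes lie below it, and simple epithelium genes gather above 0 at day 10.

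Most primitive streak genes had a higher interaction, having been far below wild type in the Sam68-labelled line at day 3. Of 16 tested members of the list, 10 were higher and 1 was lower, against 26.8% and 27.2% over all genes, with a median of 1.40. At day 3, 14 of the 16 were lower in the Sam68-labelled line (29.1% over all genes), and at day 10, 9 were (31.2% over all genes). The single lower call, the T-box gene Tbx6, was lost in several settings, among them the fit without wild-type day 10 replicate 1, when the counts were 11 higher and 0 lower.

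T, or brachyury (chr17:8434423-8442496, plus strand), is the T-box factor that marks the streak. It was read at 253, 404 and 325 CPM in wild type and 6.13, 10.6 and 16.9 CPM in the Sam68-labelled line at day 3. At day 10 both lines were low, with 15, 9.05 and 14.1 CPM against 3.11, 7.14 and 1.93 CPM. The Sam68-labelled line was below wild type in every library at both days, and the gap narrowed from -4.86 ± 0.41 to -1.64 ± 0.41 (interaction 3.22 ± 0.56, adjusted p = 0.000331). Sp5, a Wnt-responsive zinc finger gene, differed at day 3 and was not called at day 10. It gave 37.4, 63.1 and 54.2 CPM against 2.34, 2.85 and 3.88 CPM at day 3, and 5.69, 3.89 and 3.69 CPM against 4.77, 3.43 and 4.42 CPM at day 10, where the groups overlapped. Its interaction of 4.02 ± 0.33 (adjusted p = 6.97e-07) was the highest of the list.

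The homeobox genes of the streak followed. Mixl1, a mesendoderm factor, read 38.7, 90.5 and 60 CPM in wild type at day 3 against 2.92, 3.25 and 5.21 CPM, and its interaction was 2.60 ± 0.64. That call rested on 1 library: without Sam68 KO day 10 replicate 2 it was 1.74 with an adjusted p of 0.0545. Evx1 (2.61 ± 0.33) and Gsc (1.78 ± 0.32), which are expressed in the posterior and anterior streak respectively, were lower in the Sam68-labelled line at both days and less so at day 10. Of the secreted factors, Wnt3, the ligand needed to form the streak, had an interaction of 1.01 ± 0.17. Fst, which encodes the activin antagonist follistatin, went from 343 against 47.5 CPM at day 3 to 45.9 against 39.8 CPM at day 10 (group means, interaction 2.65 ± 0.27).

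Cdx2 (chr5:147300805-147307270, minus strand), a caudal-type factor of the posterior embryo and of trophoblast, did not only close the gap but passed it. The wild-type libraries held 5.59, 9.17 and 7.42 CPM at day 3 and 12.1, 12.7 and 14.2 CPM at day 10. The Sam68-labelled libraries held 1.38, 1.51 and 1.71 CPM and then 28.5, 27.5 and 26.4 CPM, below every wild-type library first and above every one later. The interaction was 3.34 ± 0.21 (adjusted p = 9.18e-08). Foxa2, a forkhead factor of the node and endoderm, had the same shape, from 32.2 against 8.48 CPM to 30.4 against 59.7 CPM (interaction 2.90 ± 0.13). Members of the Nodal and BMP pathway leaned the same way, with 15 of 28 higher and 4 lower (median 0.37). Bmp7, a ligand, had an interaction of 2.51 ± 0.12, and the BMP-induced inhibitors of DNA binding Id1 and Id3 had 2.17 ± 0.17 and 1.42 ± 0.13, in each case from a lower level in the Sam68-labelled line at day 3. Bmp4 went the other way (-0.80 ± 0.11), not being called at day 3 and being lower in the Sam68-labelled line at day 10.

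**Figure D2:**
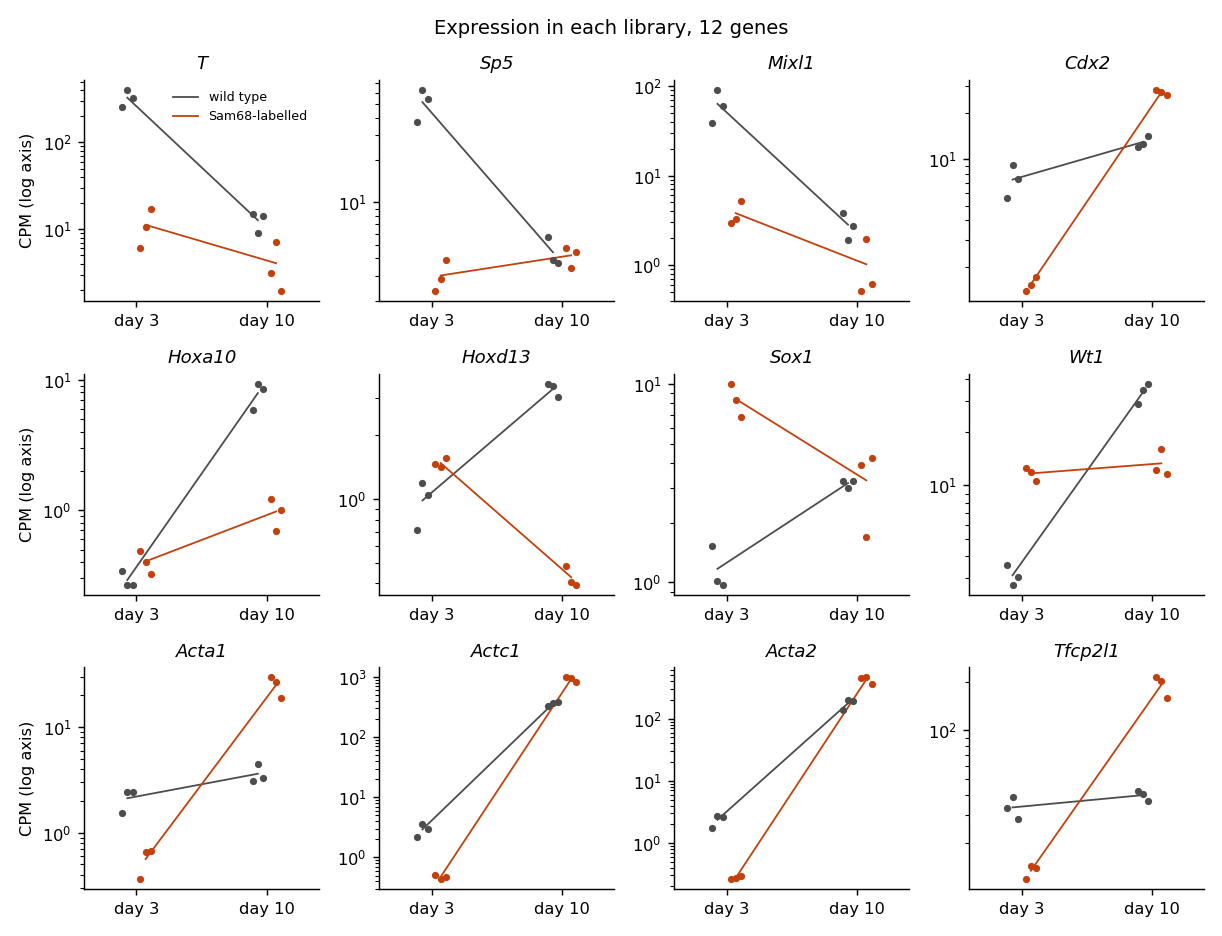
CPM on a log axis in each of the 12 libraries at day 3 and day 10 for 12 genes, wild type in grey and Sam68-labelled in orange, with lines joining the group means. T, Sp5 and Mixl1 are farther apart at day 3 than at day 10, and Hoxa10 parts at day 10. Hoxd13 crosses from above wild type to below it, and Cdx2, Acta1, Actc1, Acta2 and Tfcp2l1 cross from below wild type to above it.

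Most Hox genes had a lower interaction, and most were below wild type in the Sam68-labelled line at day 10. They encode the homeodomain factors that assign position along the body axis, lie in 4 clusters and are switched on in embryoid bodies after the streak stage. Of 39 tested genes of the Hox and Cdx list, 25 were lower and 3 higher (median -2.11), and the 25 were all Hox genes, all changed at least 2-fold. Among the 37 Hox genes tested, 34 were under 1 CPM in both groups at day 3. In wild type, 33 had a higher mean CPM at day 10 than at day 3. At day 10, 35 of the 37 were called lower in the Sam68-labelled line and 1 higher, against 31.2% and 26.2% over all genes. For 8 genes a group held 3 or fewer counts, and without such genes the list's median was -1.89. Hox genes are short, with a median span of 3540 bases over the list, and none of the list's members lies in the longest quartile of spans.

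By cluster, the interaction was called lower in 5 of 10 Hoxa genes (median -1.60), 9 of 10 Hoxb genes (-2.39), 5 of 8 Hoxc genes (-2.07) and 6 of 9 Hoxd genes (-2.84). At day 10 the numbers called lower were 10, 9, 7 and 9. Hoxd13 (chr2:74668310-74671599, plus strand), the last gene of its cluster, was high enough to be followed at both days. It read 0.717, 1.19 and 1.04 CPM in wild type and 1.46, 1.42 and 1.56 CPM in the Sam68-labelled line at day 3. At day 10 it rose to 3.51, 3.4 and 3.02 CPM in wild type and stood at 0.481, 0.407 and 0.392 CPM in the Sam68-labelled line. The groups were apart at both days, in opposite order (interaction -3.53 ± 0.25, adjusted p = 2.12e-07). Hoxa10 was low in all libraries at day 3 (0.267 to 0.487 CPM) and read 5.89, 9.33 and 8.44 CPM in wild type at day 10 against 1.23, 0.698 and 1.01 CPM (interaction -3.48 ± 0.42).

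Hoxb4, an anterior member, was already above wild type at day 3, at 1.02, 0.708 and 0.865 CPM against 0.113, 0.178 and 0.162 CPM, and reached 4.86, 4.62 and 5.17 CPM against 5.31, 8.64 and 6.85 CPM at day 10. The differences were 2.49 ± 0.32 at day 3 and -0.51 ± 0.15 at day 10 (interaction -3.00 ± 0.36). Hoxb3 (-3.02 ± 0.26) has 51% of its exonic sequence shared with other gene models, so reads could be split there. Hoxa13, the last gene of its cluster, was called lower at both days and its interaction did not pass (-0.51 ± 1.10, adjusted p = 0.723). Its values were 6.93, 8.91 and 9.22 CPM in wild type and 0.569, 0.451 and 0.784 CPM in the Sam68-labelled line at day 10. Hoxc13 was the 1 Hox gene higher in the Sam68-labelled line at day 10 (1.28 ± 0.29), with an interaction of 1.46 ± 0.40.

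**Figure D3:**
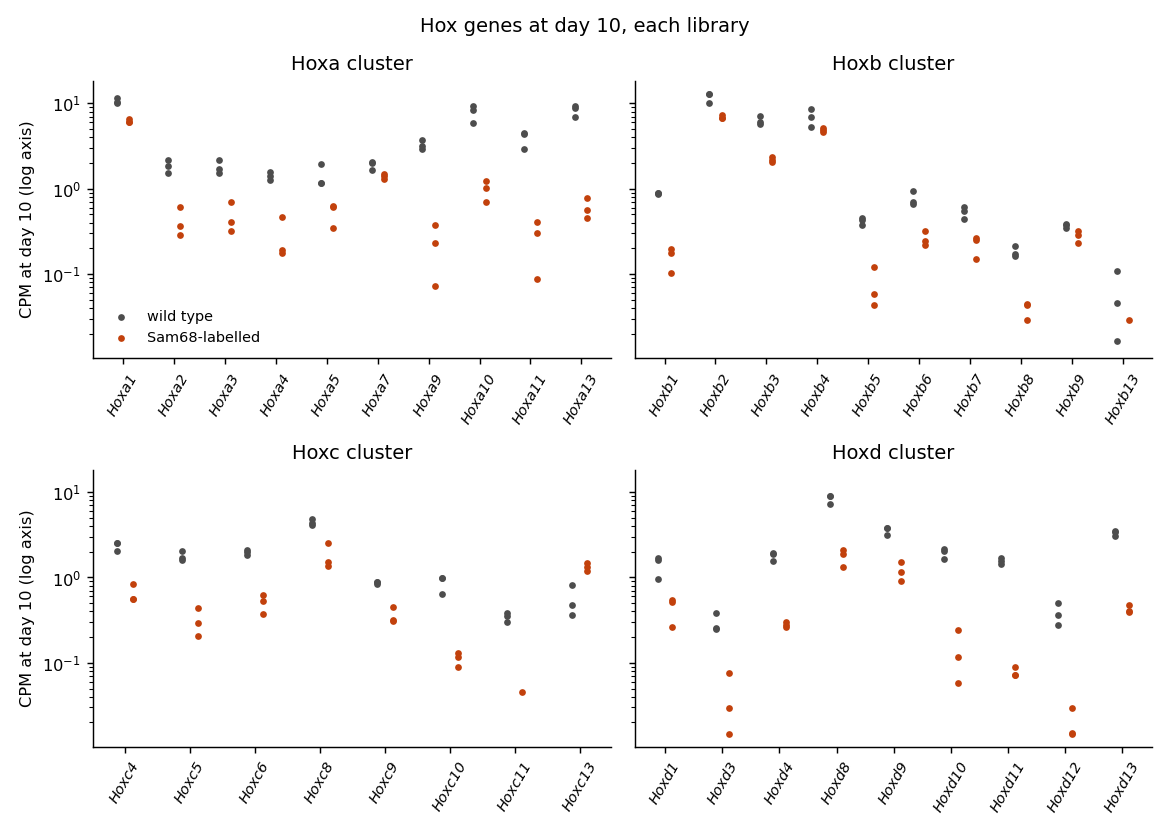
CPM of the Hox genes at day 10 on a log axis, 1 point per library, wild type in grey and Sam68-labelled in orange, with genes in cluster order; libraries with no count are not drawn. In 35 of 37 genes the Sam68-labelled libraries were called lower, Hoxc13 being the exception above wild type.

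Retinoic acid induces Hox genes in embryonic cells, and its pathway was split. Of 17 tested members 10 were lower and 5 higher (median -0.68). The synthesising enzyme Aldh1a2 overlapped at day 3 (0.868, 1.05 and 0.988 CPM against 0.752, 0.996 and 0.98 CPM), then 14.2, 19.6 and 18.6 CPM in wild type and 1.37, 2.06 and 2.73 CPM in the Sam68-labelled line at day 10. At day 10 the groups were far apart (interaction -3.00 ± 0.34, adjusted p = 1.09e-05). Cyp26a1, the enzyme that degrades retinoic acid, moved the opposite way, from 14.5, 29.9 and 22.4 CPM against 7.72, 7.62 and 7.36 CPM to 33.3, 32.8 and 30.2 CPM against 50.5, 57.8 and 45.6 CPM (2.24 ± 0.26). The receptor gene Rarg had an interaction of -1.21 ± 0.07 and Crabp1, a binding protein for retinoic acid, one of -1.66 ± 0.40. Rdh10, which makes the precursor retinaldehyde, had an interaction of 1.02 ± 0.10.

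Neural progenitor genes were often higher in the Sam68-labelled line at day 3 or lower at day 10. The interaction was lower in 10 of 17 and higher in 1 (median -1.21). At day 3, 10 were called higher in the Sam68-labelled line, against 28.4% over all genes. At day 10, 8 were called lower, against 31.2%. Sox1, the earliest marker of neuroectoderm, gave 1.53, 1.02 and 0.97 CPM in wild type and 10, 8.33 and 6.82 CPM in the Sam68-labelled line at day 3. At day 10 the values were 3.25, 3 and 3.25 CPM against 3.9, 1.69 and 4.22 CPM and overlapped (interaction -2.80 ± 0.40, adjusted p = 6.73e-05). Pax6, a neural and eye regulator, crossed from 2.35 against 3.88 CPM to 3.87 against 2.14 CPM (group means, -1.58 ± 0.21). Median span in the list was 5635 bases, and no member lies in the longest quartile.

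Neuronal genes were lower in 7 of 23 cases and higher in 1 (median -0.99), a share of lower calls near the 27.2% over all genes. At day 3, 7 were called higher and 6 lower in the Sam68-labelled line, and at day 10, 1 higher and 13 lower. The summed CPM of the list was 335.3 to 381.1 in the Sam68-labelled line and 453.2 to 519.7 in wild type at day 3. At day 10 it was 203.1 to 251.6 against 130.2 to 144.5 in wild type. Elavl3, a neuronal RNA-binding protein, went from 2.96 against 10.9 CPM at day 3 to 1.01 against 0.591 CPM at day 10 (group means, -2.64 ± 0.36). Snap25, a synaptic vesicle fusion protein, showed a steeper fall in the Sam68-labelled line, from 2.8, 3.1 and 2.48 CPM to 0.0584, 0.0872 and 0.0452 CPM, while wild type went from 1.26, 1.21 and 1.1 to 0.379, 0.249 and 0.258 CPM (-3.40 ± 0.37). Nefl, the light neurofilament chain, was the exception with 2.97 ± 0.18, but 32% of its sequence is shared with other gene models.

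In the paraxial mesoderm and somite list, which gives rise to muscle and vertebrae, 10 of 16 genes were lower and none higher (median -1.03). Tcf15, a somite factor, read 5.44, 5.4 and 4.91 CPM in wild type and 15.7, 11.9 and 11.4 CPM in the Sam68-labelled line at day 3, and 0.808, 0.746 and 1.14 CPM against 0.248, 0.407 and 0.573 CPM at day 10. The order of the lines was reversed between the days with no overlap at either (-2.44 ± 0.32). The Notch pathway, which paces somite formation, was lower in 12 of 18 genes and higher in 1 (median -0.89). It included the ligand Jag1 (-1.57 ± 0.16), the receptor Notch1 (-1.37 ± 0.17), the ligand Dll3 (-1.37 ± 0.24) and the glycosyltransferases Mfng (-1.80 ± 0.16) and Lfng (-0.86 ± 0.18). Notch1 was at 30.8 against 51.8 CPM at day 3 and 64.8 against 42.1 CPM at day 10. Hes1, a target of the pathway, was the 1 member called higher (0.64 ± 0.09).

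Contractile genes were mostly called higher. In the cardiac sarcomere and conduction list 17 of 29 were higher and none lower (median 0.90), against 26.8% and 27.2% over all genes. At day 10, 27 of the 29 were higher in the Sam68-labelled line and 1 lower, against 26.2% and 31.2% over all genes. At day 3, 7 were higher and 2 lower, against 28.4% and 29.1%. In the smooth muscle list 8 of 13 were higher and 3 lower (median 1.11). Without genes that had 3 or fewer counts in a group the medians were 0.83 and 0.86. Acta1 (chr8:123891769-123894751, minus strand), skeletal muscle actin, which embryonic heart also expresses, had the largest rise among the genes passing the naming rule. It stood at 1.53, 2.42 and 2.41 CPM in wild type and 0.366, 0.651 and 0.672 CPM in the Sam68-labelled line at day 3. At day 10 wild type read 3.12, 4.43 and 3.31 CPM and the Sam68-labelled line 29.6, 26.8 and 18.9 CPM, the groups being apart at both days in opposite order (4.70 ± 0.36, adjusted p = 3.75e-07).

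Cardiac actin Actc1 (chr2:114047282-114053548, minus strand) was at 2.23, 3.58 and 2.95 CPM against 0.508, 0.44 and 0.48 CPM at day 3 and at 327, 368 and 387 CPM against 985, 971 and 826 CPM at day 10 (3.98 ± 0.23). Smooth muscle actin Acta2 (chr19:34241090-34255590, minus strand) followed with 1.76, 2.69 and 2.64 CPM against 0.264, 0.268 and 0.288 CPM, then 140, 198 and 196 CPM against 459, 463 and 362 CPM (4.37 ± 0.35). In all 3 actins every Sam68-labelled library lay below every wild-type library at day 3 and above it at day 10. Over all tested genes, the day changes of the lines did not overlap in 8199 of 15865. The calponins, which bind actin, were called higher too, Cnn1 at 2.17 ± 0.16 and Cnn2 at 1.47 ± 0.13, and Cnn2 was not called at day 10 (0.14 ± 0.09). Mylk, the kinase that activates smooth muscle myosin, was called lower (-2.20 ± 0.24).

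These genes are textbook targets of serum response factor, which binds the CArG box, CC followed by 6 bases of A or T and then GG. The 250 bases before the RefSeq start of 3 actin genes and of Cnn2 are printed here, as RefSeq gives them on GRCm38.p6. They are in lower case, with each exact match to this pattern in capitals. Near matches with 1 differing base were not searched for and stay in lower case. The Acta2 and Actc1 windows hold such sequences. The 4 genes were chosen after their values were seen.
Acta1 (chr8:123894776-123895025, minus strand): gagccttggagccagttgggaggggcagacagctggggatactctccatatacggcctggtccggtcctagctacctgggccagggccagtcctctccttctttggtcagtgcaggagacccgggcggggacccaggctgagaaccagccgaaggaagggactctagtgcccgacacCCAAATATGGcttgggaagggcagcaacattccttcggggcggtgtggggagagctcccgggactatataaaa
Actc1 (chr2:114052876-114053125, minus strand): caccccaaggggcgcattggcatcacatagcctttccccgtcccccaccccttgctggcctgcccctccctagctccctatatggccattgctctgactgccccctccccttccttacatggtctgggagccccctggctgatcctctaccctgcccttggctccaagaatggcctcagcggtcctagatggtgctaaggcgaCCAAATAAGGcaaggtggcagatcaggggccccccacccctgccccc
Cnn2 (chr10:79988350-79988599, plus strand): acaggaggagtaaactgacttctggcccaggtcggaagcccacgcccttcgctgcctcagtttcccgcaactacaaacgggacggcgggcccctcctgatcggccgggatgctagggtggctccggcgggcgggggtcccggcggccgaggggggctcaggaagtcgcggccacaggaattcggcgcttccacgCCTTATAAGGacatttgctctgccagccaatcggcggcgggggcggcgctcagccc
Acta2 (chr19:34255374-34255623, minus strand): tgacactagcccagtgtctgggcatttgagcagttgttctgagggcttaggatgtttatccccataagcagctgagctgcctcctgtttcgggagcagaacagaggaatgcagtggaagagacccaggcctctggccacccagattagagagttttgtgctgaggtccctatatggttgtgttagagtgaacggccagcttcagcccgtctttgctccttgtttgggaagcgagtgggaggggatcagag
The box begins 73 bases before the RefSeq start in Acta1, 47 in Actc1 and 56 in Cnn2, and no exact match lies in the window of Acta2. RefSeq starts were accepted up to 1000 bases from the annotated gene start. By the gene coordinates given above, the Actc1 window lies inside the gene and the Acta2 window partly inside it. Distances are therefore counted from the RefSeq start only. The pattern reads the same on both strands, so 1 search covers both. It was found in 482 of 32851 promoters of the table (1.47%) and in 115 of the 11135 promoters matched to tested genes (1.03%). Among genes with a called interaction of at least 2-fold it was found in 16 of 520 higher genes (3.08%) and 8 of 1143 lower genes (0.7%). These sets were defined by the interaction itself, and the higher set holds Acta1, Actc1 and Cnn2. Whether the box has a part in these changes was not tested. By list, it was found in 2 of 20 promoters of cardiac sarcomere genes, 2 of 7 of smooth muscle genes, 2 of 12 of primitive streak genes, and in none of 7 of immediate early genes, 12 of simple epithelium genes and 18 of Hox and Cdx genes. A match is a description of letters and no sign of binding.

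Within the sarcomere list the size differed between members. Tnnc1, cardiac troponin C, read 0.528, 0.624 and 0.539 CPM against 0.406, 0.402 and 0.211 CPM at day 3 and 31.4, 43.5 and 42.7 CPM against 135, 146 and 120 CPM at day 10 (2.50 ± 0.36). Mybpc3, a thick filament protein, had 1.57 ± 0.25. Ttn and Ryr2, which encode titin and the calcium release channel and span long genomic distances, were higher in the Sam68-labelled line at both days, and their interactions did not pass. For Ttn the differences were 1.31 ± 0.19 at day 3 and 1.28 ± 0.14 at day 10 (interaction -0.02 ± 0.23, adjusted p = 0.951), and for Ryr2 1.60 ± 0.21 and 1.30 ± 0.13 (-0.30 ± 0.25, adjusted p = 0.334). Among the 19 members of the list under the longest span quartile, 11 were higher and the median was 1.30. Among 22 tissue-specific splicing regulators, of which 7 were called higher and 9 lower (median -0.28), the highest interactions were those of Rbm24 and Rbm20. Rbm24, an RNA-binding protein of muscle, went from 1.38 against 0.615 CPM to 23.2 against 55.6 CPM (2.43 ± 0.16), and Rbm20, which controls titin splicing, from 14.1 against 7.55 CPM to 17.1 against 31.0 CPM (1.76 ± 0.14).

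Regulators of heart and epicardium did not move as 1 block, with 6 of 19 higher and 3 lower. These are 31.6% and 15.8% of the list, against 26.8% and 27.2% over all genes. Tbx20, a T-box factor of the heart, went from 4.09 against 1.93 CPM to 117 against 169 CPM (1.62 ± 0.15), and Gata4, higher in the Sam68-labelled line at both days, had 0.46 ± 0.09. Wt1 (chr2:105126529-105173616, plus strand), a factor of epicardium, mesothelium and kidney, went down. It gave 3.57, 2.74 and 3.04 CPM in wild type and 12.6, 11.9 and 10.5 CPM in the Sam68-labelled line at day 3, and 28.7, 34.6 and 37.5 CPM against 12.2, 16.1 and 11.6 CPM at day 10. Wild type rose between the days and the Sam68-labelled libraries stayed between 10.5 and 16.1 CPM (-3.24 ± 0.20, adjusted p = 8.63e-08). Tcf21, another epicardial factor, was near 0 at day 3 in both lines and reached 9.04, 9.87 and 11.4 CPM in wild type against 1.15, 1.34 and 0.965 CPM at day 10 (-3.94 ± 0.80).

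Simple epithelium genes were mostly called higher, 16 of 20, and none lower (median 1.02). At day 10, 17 of 20 were higher in the Sam68-labelled line, against 26.2% over all genes. Prss8, a membrane-anchored serine protease, read 25.9, 23.2 and 25.2 CPM against 17.8, 18.2 and 18 CPM at day 3 and 22.5, 21.6 and 22.9 CPM against 68.9, 62 and 57.3 CPM at day 10 (1.95 ± 0.10, adjusted p = 1.5e-08). Its inhibitor Spint1 (1.55 ± 0.08), the tight junction proteins Cldn7 (1.85 ± 0.12) and Ocln (1.78 ± 0.09), and the keratins Krt19 (1.90 ± 0.13), Krt8 (1.74 ± 0.12) and Krt18 (1.52 ± 0.13) were called higher too. For Krt8, 30% of the sequence is shared with other gene models. Cdh1, E-cadherin, was not called at day 3 (0.13 ± 0.14) and read 170, 102 and 103 CPM in wild type against 274, 263 and 236 CPM at day 10 (0.92 ± 0.21). Esrp2, an epithelial splicing factor, had 0.81 ± 0.08.

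A list of 15 genes of the switch between epithelial and mesenchymal states, which also holds epithelial genes such as Ocln and Cldn7, had 8 members called higher and 3 lower (median 0.68). Those called lower were Zeb1 and Zeb2, repressors of epithelial genes, and Twist2, a mesenchymal factor, while Snai1, another such repressor, was called higher (1.59). Zeb1 rose in wild type from 3.51 to 83.9 CPM and in the Sam68-labelled line from 7.88 to 54.7 CPM (group means, -1.78 ± 0.09), so that it was above wild type at day 3 and below at day 10. Zeb2 had -0.94 ± 0.11. Twist2 had -2.22 ± 0.25, with 46% of its sequence shared.

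**Figure D4:**
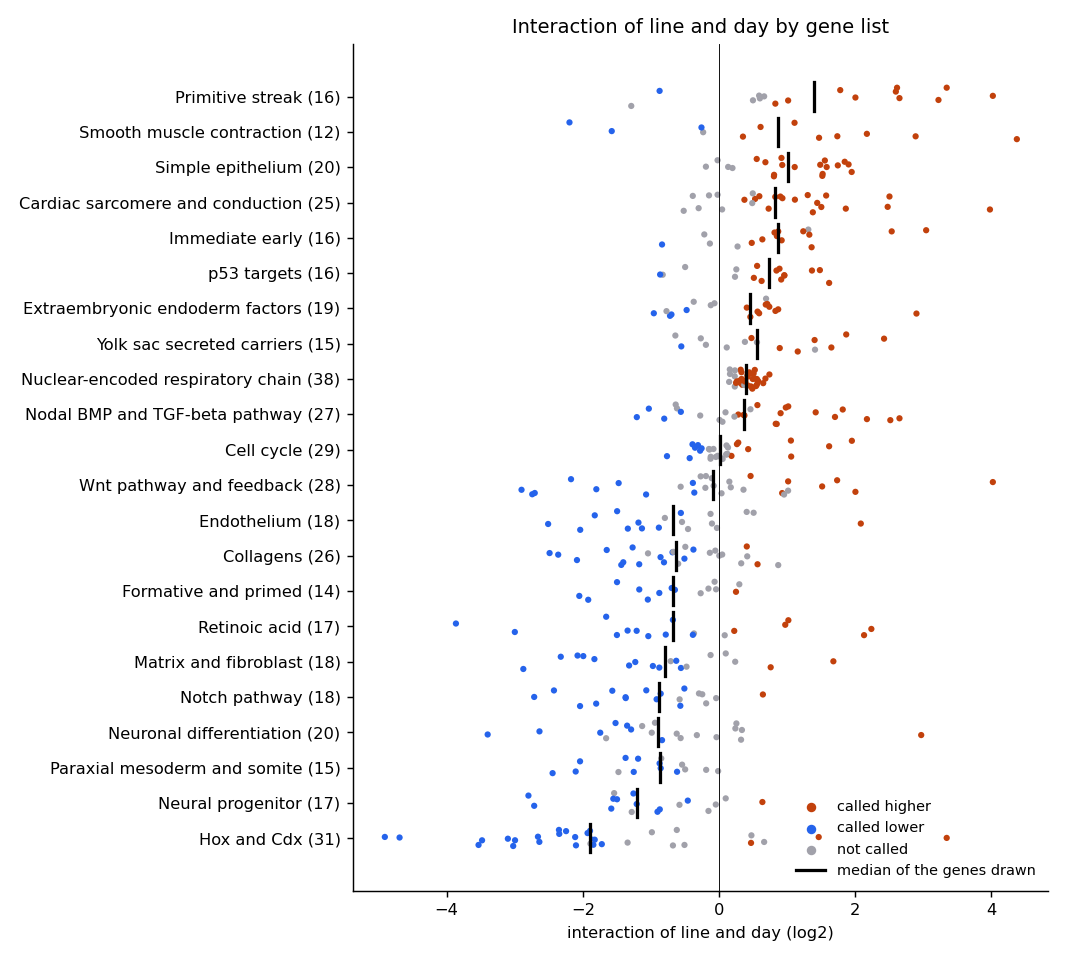
Interaction of line and day (log2) of single genes in 22 gene lists, with the number of genes drawn in brackets; orange points were called higher, blue points lower and grey points not called, and the black bar is the median of the points. Genes with 3 or fewer counts in a group are left out. Streak, muscle and epithelial lists lie to the right of 0, and neural, somite, Notch and Hox lists to the left.

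Matrix genes, products of mesenchymal and fibroblast-like cells, were lower in 12 of 22 cases and higher in 2 (median -0.79), and collagens in 13 of 26 cases and higher in 2 (median -0.64). At day 10, 18 of the 22 and 19 of the 26 were lower in the Sam68-labelled line, against 31.2% over all genes. Col6a2, a chain of collagen VI, read 4.13, 4.19 and 4.55 CPM against 4.79, 4.92 and 4.51 CPM at day 3 and 87.7, 108 and 123 CPM against 26.3, 25.1 and 31.7 CPM at day 10 (-2.09 ± 0.18). Col14a1 (-2.49 ± 0.27) and the proteoglycan Dcn (-2.87 ± 0.51) were called lower too. The collagens are long genes, with a median span of 114387 bases, and among the 9 under the longest quartile 8 were lower (median -1.27). The 2 basement membrane chains Col4a1 (0.57 ± 0.10) and Col4a2 (0.41, adjusted p = 0.0271, lost in 8 other settings) were the members called higher, with the Sam68-labelled line above wild type at both days.

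Endothelial genes were lower in 9 of 20 cases and higher in 1 (median -0.55). Cdh5, VE-cadherin, differed at day 3 (interaction -2.51 ± 0.17), when it read 0.755, 0.641 and 0.485 CPM in wild type and 3.27, 3.64 and 3.46 CPM in the Sam68-labelled line. At day 10 the lines overlapped at 68.2, 59.5 and 55.9 CPM against 57.2, 59.1 and 61.5 CPM. Kdr, the main receptor for vascular endothelial growth factor, overlapped at day 3 and was lower at day 10, at 172, 158 and 160 CPM against 73.5, 77.1 and 79.6 CPM (-1.18 ± 0.17). Flt1, a decoy receptor for the same ligand that trophoblast and endoderm also make, had the opposite sign (2.08 ± 0.13). Many blood genes were near 0 at day 3. Of 20 macrophage and platelet genes 19 were lower in the Sam68-labelled line at day 10, as were 16 of 17 erythroid genes. Over all genes 31.2% were lower at that day. Their interactions were called lower in 6 (30%) and 4 (23.5%), near the 27.2% over all genes. None of the macrophage and platelet genes and 2 erythroid genes were called higher. A group held 3 or fewer counts in 12 macrophage and platelet genes and in 6 erythroid genes. The embryonic globin Hbb-bh1 stood at 171, 163 and 192 CPM in wild type and 64.9, 58.4 and 66.1 CPM in the Sam68-labelled line at day 10 (interaction -0.36 ± 1.06, adjusted p = 0.796).

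Of the secreted carriers made by yolk sac endoderm, 11 of 21 were higher in the Sam68-labelled line at day 10 and 4 lower. Over all genes the shares at that day were 26.2% and 31.2%. The interaction was higher in 7 (33.3%) and lower in 1 (4.76%), against 26.8% and 27.2% over all genes (median 0.42). In 6 members a group held 3 or fewer counts, and without them the median was 0.56. The retinol carrier Rbp4 went from 1.14 against 0.902 CPM to 61.2 against 260.1 CPM (2.42 ± 0.38). Apoe, an apolipoprotein, had 1.65 ± 0.13 and Ttr, the thyroxine carrier, 1.40 ± 0.23. Extraembryonic endoderm factors were mostly above wild type at both days, 16 of 19 at day 3 and 15 at day 10. Over all genes these shares were 28.4% and 26.2%. The interaction of this list split into 10 higher and 4 lower (median 0.46). Lama1, a laminin chain of the endoderm's basement membrane, was 1.99 ± 0.12 above wild type at day 3 and 1.27 ± 0.12 at day 10 (-0.72 ± 0.17).

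Genes of the immediate early response, which cells induce within minutes of a stimulus or of handling, were higher in 11 of 16 cases and lower in 1 (median 0.86). Fos read 4.36, 7.46 and 6.92 CPM against 2.01, 1.97 and 2.11 CPM at day 3 and 9.65, 10.3 and 9.67 CPM against 20.2, 13.8 and 21.8 CPM at day 10. The lines did not overlap at either day and exchanged order (2.54 ± 0.27). Fosb (3.04 ± 0.36), Egr1 (1.36 ± 0.22) and Junb (1.24 ± 0.13) followed, and Myc was the member called lower (-0.84 ± 0.10). Ccn2, a matricellular protein induced by serum response factor and YAP signalling, reversed upwards, from 57.1, 53.2 and 55.2 CPM against 38.3, 41.1 and 41.5 CPM at day 3, then 67.4, 61.5 and 62.1 CPM against 274, 282 and 262 CPM (2.55 ± 0.08, adjusted p = 5.11e-10).

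Targets of p53 were higher in 11 of 16 cases and lower in 1 (median 0.73), with the count of lower calls at 2 without wild-type day 10 replicate 1. Cdkn1a, the cell cycle inhibitor p21, read 33.7, 35.9 and 39.3 CPM against 18.2, 19.7 and 18.5 CPM at day 3 and 55.5, 46.4 and 41 CPM against 78.8, 79.4 and 68.4 CPM at day 10 (1.62 ± 0.14). Pmaip1, the cell death factor Noxa, had 1.48 ± 0.14, from 58.5 against 17.4 CPM at day 3 to 5.60 against 4.64 CPM at day 10. Mdm2, which encodes the ubiquitin ligase of p53, was not called at day 3 and was higher at day 10 (interaction 0.63 ± 0.08). Sesn1, a stress-induced member, was called lower (-0.86 ± 0.08). The cell cycle list as a whole had an interaction higher in 8 and lower in 7 of 29, near the shares over all genes. Without wild-type day 10 replicate 1, 11 were lower. At day 3, 17 of its genes were lower in the Sam68-labelled line and 3 higher, and at day 10, 14 lower and 6 higher.

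Pluripotency genes were divided. Of the naive markers 7 of 16 were higher and 5 lower. Tfcp2l1 (chr1:118627945-118685168, plus strand), a naive pluripotency factor that kidney and other epithelia also express, had the largest interaction of the list. It read 33.3, 38.6 and 28.1 CPM against 12, 14.4 and 14.1 CPM at day 3, and 42.1, 40.4 and 36.6 CPM against 213, 203 and 159 CPM at day 10 (3.57 ± 0.18, adjusted p = 1.68e-08). Klf4, which epithelia also express, was 1.30 ± 0.14. Esrrb (0.69 ± 0.20) and Zfp42 (0.72 ± 0.20), further naive markers, were lower in the Sam68-labelled line at day 3. Formative genes, those of the stage between naive and primed, were lower in 8 of 14 cases and higher in 1 (median -0.67). Pou3f1 gave 31.6, 25.3 and 31.1 CPM against 101, 85.1 and 74.5 CPM at day 3 and 3.64, 2.27 and 2.82 CPM against 2.16, 2.11 and 1.96 CPM at day 10 (-2.05 ± 0.22). Of the core factors, Nanog (-0.13 ± 0.20, adjusted p = 0.599) and Pou5f1 (-0.59 ± 0.25, adjusted p = 0.059) did not pass, Nanog being lower in the Sam68-labelled line at both days. Pou5f1 was called lower in 7 of 23 other settings (upper-quartile scaling, limma-voom, fits on 18 or 27 libraries, a replicate block within line, and without replicate 2 of either line at day 10), and Nanog in 1, without Sam68 KO day 10 replicate 2. Sox2 (-0.90), which neural progenitors also express, and Lin28a (1.22 ± 0.11), an RNA-binding regulator of let-7, passed in opposite directions.

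Transcripts reported elsewhere as bound or spliced by Sam68 were taken as a list of 14 tested genes. Of these, 6 were lower (42.9%) and 3 higher (21.4%), against 27.2% and 26.8% over all genes. Gene counts do not measure splicing, so this describes their amounts only. Nrxn2, a synaptic adhesion gene, read 5.95, 5.09 and 5.3 CPM against 16.2, 16.4 and 14.9 CPM at day 3 and 2.56, 1.62 and 1.96 CPM against 1.09, 0.814 and 0.98 CPM at day 10, reversing with no overlap (-2.62 ± 0.21). Auts2 (-1.57 ± 0.17), a long neuronal gene, was lower too. Bcl2l1, a cell survival gene whose splicing Sam68 is known to shift, went from 52.6 against 34 CPM to 77.7 against 80.9 CPM (0.69 ± 0.10). Sgce (0.61 ± 0.12) and Smn1 (0.48 ± 0.09) were higher. Of these genes, 7 of the 14 lie under the longest quartile, and among them 2 were higher and 2 lower. Among the splicing regulators called lower, Mbnl1, which favours adult splice forms, had -0.95 ± 0.10, and the neuronal Srrm4 had -2.28 ± 0.48 from a higher level in the Sam68-labelled line at day 3.

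Nuclear-encoded subunits of the respiratory chain were higher in 31 of 38 cases and lower in none, but none changed 2-fold (median 0.40, highest 0.74). At day 3, 34 of the 38 were lower in the Sam68-labelled line (29.1% over all genes), and at day 10, 5 were (31.2% over all genes). Ndufa4, a subunit of the chain, read 201, 212 and 206 CPM against 128, 117 and 122 CPM at day 3 and 112, 144 and 141 CPM against 130, 139 and 126 CPM at day 10, where the lines overlapped (0.74 ± 0.11). Ribosomal protein genes were lower in the Sam68-labelled line at both days, 53 and 50 of 56, against 29.1% and 31.2% over all genes. Their interaction passed in 11, with 9 higher and 2 lower (7 and 1 without wild-type day 10 replicate 1). These are 16.1% and 3.57% of the list, against 26.8% and 27.2% over all genes, and the other 45 were not called. Of 13 protein genes of the mitochondrial genome, which encode further subunits of the respiratory chain, none was called higher and 3 were called lower (median -0.74). Their share of the counts was 1.05 to 1.18% in the Sam68-labelled and 0.416 to 0.787% in the wild-type libraries at day 3, and 0.599 to 0.741% against 0.476 to 0.664% at day 10. The groups did not overlap at day 3 and overlapped at day 10, and the part of this share in the other results was not tested. With scaling over all genes of the table the median of the respiratory chain list was 0.58. Lists with an interaction near the shares over all genes were the Wnt pathway (7 higher and 9 lower of 28), FGF signalling (5 and 7 of 22), imprinted genes (5 and 6 of 24) and interferon-induced genes (7 and 6 of 22). At single days, Wnt genes were lower in 17 and higher in 5 at day 3, and 19 and 4 at day 10. Interferon-induced genes had 12 and 2, then 15 and 3. Imprinted genes had 11 and 4, then 12 and 4, and FGF genes 5 and 9, then 9 and 4. The median changed sign with scaling over all genes of the table for the Wnt, FGF and interferon lists. Single Wnt members had large interactions, such as the secreted inhibitor Sfrp2 (-2.71 ± 0.22) and the ligand Wnt11 (1.51 ± 0.16).

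Largest single changes were taken from called genes with at least 1 CPM on average, at most 20% shared sequence and no overlap between the lines' day changes. Besides the actins, Sp5, Tfcp2l1, Cdx2 and T, the 12 largest rises included Gad1, the enzyme that makes GABA (3.25 ± 0.32, from 3.64 against 0.287 CPM at day 3 to 1.59 against 1.20 CPM), and the testis-expressed Fmr1nb (3.18 ± 0.25). They also included Edn1, Iigp1 and Gimap6, for which a group held 3 or fewer counts, so that only CPM are given. Edn1, endothelin, read 0.0944, 0.303 and 0.18 CPM in wild type and 0.0406, 0 and 0 CPM in the Sam68-labelled line at day 3, and 2.74, 2.81 and 1.99 CPM against 4.95, 4.56 and 3.74 CPM at day 10. Iigp1, an interferon-induced GTPase, read 0.679, 1.69 and 1.17 CPM against 0, 0.0191 and 0.0192 CPM at day 3 and 3.23, 4.31 and 5.45 CPM against 0.598, 0.843 and 0.889 CPM at day 10, below wild type at both days. Gimap6, a GTPase of blood cells, read 0.0566, 0.0178 and 0.0539 CPM against 0 in all 3 libraries at day 3 and 9.96, 11.2 and 9.53 CPM against 5.08, 5.99 and 5.85 CPM at day 10. Its call was lost in 8 of 24 other settings, among them DESeq2, limma-voom and 5 of the fits without 1 library of day 3.

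Among the 12 largest falls several encode neurotransmitter receptors. Gabra3 (chrX:72432681-72656848, minus strand), a subunit of the GABA-A receptor, read 4.76, 5.08 and 4.74 CPM against 8.37, 8.16 and 8.59 CPM at day 3 and 3.53, 4.15 and 3.58 CPM against 0.263, 0.189 and 0.302 CPM at day 10 (-4.68 ± 0.18, adjusted p = 5.52e-09). The glutamate receptor genes Grin2b (-4.35 ± 0.31) and Gria1 (-4.55 ± 0.60) were also among them, Grin2b being higher in the Sam68-labelled line at day 3 (9.58 against 1.69 CPM) and lower at day 10 (0.637 against 2.30 CPM). Gfra1, a receptor for the growth factor GDNF, went from 1.06 against 2.71 CPM to 20.5 against 3.05 CPM (-4.11 ± 0.22), and Hic1, a transcriptional repressor of mesenchymal cells, from 0.387 against 0.631 CPM to 8.08 against 0.847 CPM (-3.95 ± 0.37). Of these 12 genes 9 lie in the longest quartile of spans and the median span was 194946 bases. Of the 12 largest rises none lies in that quartile, and their median span was 7359 bases.

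The Sam68-labelled day change was also set against that of the Quaking KO line, in a fit of 18 libraries in which 8993 of 16036 genes were called (56.1%). Both comparisons use the same Sam68-labelled libraries, so their values are given side by side and their likeness is no result. T had 3.22 against wild type and 2.17 against the Quaking line, Sp5 had 4.02 and 2.59, and Mixl1 had 2.60 and 1.11. Acta1 had 4.70 and 5.60, Actc1 3.98 and 5.28, and Acta2 4.37 and 4.72. Hoxd13 had -3.53 and -2.65 and Hoxa10 -3.48 and -3.03. Medians were 1.40 and 0.46 for the primitive streak and 0.46 and -0.39 for extraembryonic endoderm, the latter with opposite signs. The list of the epithelial to mesenchymal switch also changed sign, at 0.68 and -0.09. So did definitive endoderm (0.02 and -0.23), imprinted (0.006 and -0.18) and cell cycle genes (0.009 and -0.07), near 0 against wild type. Neural progenitor genes had medians of -1.21 and -1.89, simple epithelium 1.02 and 1.35, and Hox and Cdx -2.11 and -1.90.

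**Figure D5:**
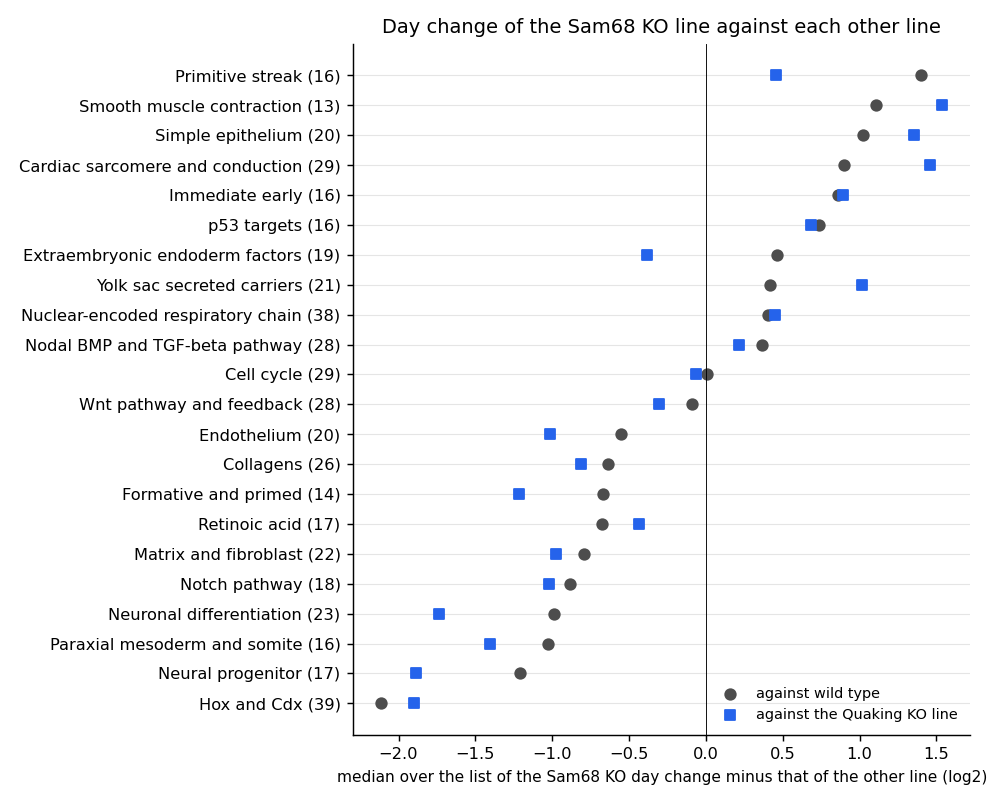
Median over each gene list of the Sam68-labelled change from day 3 to day 10 minus the change in wild type (grey circles) or in the Quaking KO line (blue squares), log2, with the number of tested genes in brackets. Most lists lie on the same side of 0 for both references, while extraembryonic endoderm factors lie at 0.46 and -0.39 and cell cycle genes near 0.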

How the data were processed

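RNA-seq was run on total RNA of embryoid bodies, depleted of ribosomal RNA, with a stranded kit and paired reads, per the labels' protocols. The authors deposited raw read counts per gene and library, without normalization. bcl2fastq 2.17.1.14, STAR 2.5.3a and the build GRCm38 (mm10) are named per the submitters' processing notes, and no source used here gives the counting program, its strand setting or the authors' annotation release, so overlapping and antisense genes may share reads.

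Identifiers were matched without version to GENCODE M21 (51633 of 51826, 99.6%), which gave 21793 protein-coding genes. Those with enough counts (edgeR's filterByExpr, minimum count 10, minimum total 15) were scaled with TMM and fitted over 12 libraries with edgeR 4.0.16 (quasi-likelihood test, R 4.3.3, 1 mean per group, no other terms). Genes with a Benjamini-Hochberg adjusted p under 0.05 were called, and all adjusted p-values printed come from this test over all genes. Errors beside log2 values are standard errors. CPM are counts per TMM-scaled library total. Scripts were tested on simulated data. DESeq2 1.42.0, limma 3.58.1 (voom), other scalings and filters, other sets of libraries, a replicate block and leaving out each library were tried as alternatives.

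The comparison and the gene lists were chosen with earlier results of these data known. The naming rule took STAR genes, the 12 highest and 12 lowest interactions, up to 3 called members of each list in each direction by smallest p, and 3 genes of each class by sign at both days. Other genes are list members chosen after their values were seen. Fitted folds are not given for genes with 3 or fewer counts in a group. Shared sequence is the share of exonic 50-base windows found in another gene model.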

Additional observations from a re-analysis of the deposited data

Results flagged for a closer look

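The sign of the line difference turned between the days in 2 sets of genes, by the test of the interaction itself. It went from lower in the Sam68-labelled libraries at day 3 to higher at day 10 in 1000 genes, and from higher to lower in 1067 genes. Long noncoding RNA, which the comparison of protein-coding genes does not use, took a median of 3.17% of counts in the Sam68-labelled libraries of day 3, above the range in the wild-type libraries of that day. Its part in the results was not tested.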

How the results depend on the processing

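No called gene was called in the opposite direction in any setting run. Leaving out 1 library at a time gave 7680 to 8976 interaction calls, 3781 to 4522 of them higher and 3633 to 4454 lower, and 7971 to 10063 and 8086 to 10174 line differences at day 3 and day 10. Restricting the fit to 9149 genes without shared sequence gave 5078 calls (2821 higher and 2257 lower), with 5089 at day 3 and 5415 at day 10, fewer genes being tested. Testing and scaling over all genes of the table, 21541 after the filter, gave 6518 called higher and 5155 lower, a higher share of 55.8% in place of 49.7%; both the genes tested and the scaling differ there. Tdgf1, not called as reported (0.0074), lay between -0.42 (without Sam68 KO day 10 replicate 2, where it was called lower, edgeR adjusted p = 0.0232) and 0.24 (without replicate 3 of that group), and the cause was not tested. Same-numbered libraries of different groups correlated between -0.07 and 0.19 in their deviations. Between wild type day 3 and day 10 these values were 0.19, 0.04 and 0.08, and unlike-numbered pairs ran from -0.17 to 0.14. With 3 libraries a group, such values cannot show whether the numbers pair the samples. A replicate block gave 8502 calls, and a replicate block within line gave 8693. Depth limits the genes with few counts at day 3, as in Hoxa13 and Hbb-bh1, whose interactions had standard errors of 1.10 and 1.06.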
